A study of Homo sapiens with 9 samples.

Results

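The mitochondrial ribosomal protein genes were chosen by name: a row of the deposited count tables was a member where its gene symbol was MRPL or MRPS followed by a number and, where present, a letter from A to C. No measured value entered the rule, and pseudogenes were left out. The rule found 77 of the 18293 rows present in both tables, and these rows carry 76 symbols. By symbol, 48 rows belong to the large subunit (MRPL) and 29 to the small subunit (MRPS). All 77 rows passed the filter on low counts. MRPL46 has 2 rows. The second has an identifier that GENCODE 29 names AC013489.1, and 97.4% of its exonic length overlaps DET1 or MRPL46, so it was kept as a member but left out where levels of genes were ranked.

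The cells were HMEC-1, an established line of human skin microvascular endothelial cells, kept in medium with 5.5 mM glucose. They received AMI-1 at 100 µM in DMSO, AMI-5 at 100 µM in DMSO, or DMSO alone as the control, each for 16 h, and poly-A RNA was sequenced. Each of these groups has 3 libraries, 9 in all, numbered 1 to 3. AMI-1 and AMI-5 are small molecules known as inhibitors of protein arginine methyltransferases, and all groups share the cell line, the solvent and the medium.

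Mitochondrial ribosomes translate the few proteins that mitochondrial DNA encodes, all of them core parts of the respiratory chain and the ATP synthase. Their rRNAs come from mitochondrial DNA, whereas every protein of the large and the small subunit is encoded in the nucleus, made in the cytosol and imported. The small subunit binds the mRNA and holds the decoding centre, and the large subunit holds the peptidyl transferase centre and an exit tunnel that opens at the inner membrane. Transcription of nuclear genes for mitochondrial proteins is known to involve NRF1, GABP (an ETS family factor) and YY1. Some names mislead: MRPS18A and MRPS30 sit in the large subunit, and MRPS36 is a part of the 2-oxoglutarate dehydrogenase complex.

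RefSeq promoters (GRCh38.p14, 250 bases before to 50 after the annotated start) were matched by symbol for 67 of the 76 members. Exact letters were searched on both strands, and the searched words do not contain each other. CCGGAAG, a GABP or ETS core, was in 28 of the 67 (41.8%), against 16.3% of the 14228 promoters of genes in both count tables. AAGATGGCG, a YY1 word, was in 13 (19.4%) against 3.35%, and GCATGCGC, an NRF1 word, in 6 (8.96%) against 4.71%. At least 1 of these 3 words was in 38 member promoters (56.7%) against 22.4%. CCAAT was in 29.9% against 34.3%, and TATAAA in 2.99% against 6.33%. The shares in large and small subunit promoters were 40% and 44.4% for CCGGAAG, and 20% and 18.5% for AAGATGGCG.

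The 250 bases before the start are shown for 4 members. MRPS34 and MRPL32 were the members called lower with AMI-5 both before and after the GC correction described further on, MRPL40 was the member called higher after it, and MRPL12, also called lower before it, held none of the 5 words. Capitals mark matches of the words or of their reverse complements. In MRPS34 the GABP word, read as CTTCCGG on the printed strand, begins at positions -71, -29 and -19 relative to the start. In MRPL32 the YY1 word begins at -223, CCAAT at -122 and the NRF1 word at -39. In MRPL40 the GABP word begins at -11.
MRPS34, chr16:1773135-1773384, minus strand: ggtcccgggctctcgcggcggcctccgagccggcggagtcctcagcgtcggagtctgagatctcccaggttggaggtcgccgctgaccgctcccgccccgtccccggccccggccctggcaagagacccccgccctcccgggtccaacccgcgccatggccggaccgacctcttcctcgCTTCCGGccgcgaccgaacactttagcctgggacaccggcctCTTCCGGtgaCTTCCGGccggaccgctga
MRPL32, chr7:42932126-42932375, plus strand: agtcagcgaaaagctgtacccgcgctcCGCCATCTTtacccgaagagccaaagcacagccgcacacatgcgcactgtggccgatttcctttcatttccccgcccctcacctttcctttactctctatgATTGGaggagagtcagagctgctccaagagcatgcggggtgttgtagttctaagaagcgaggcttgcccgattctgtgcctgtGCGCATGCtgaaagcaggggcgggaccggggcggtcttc
MRPL40, chr22:19432295-19432544, plus strand: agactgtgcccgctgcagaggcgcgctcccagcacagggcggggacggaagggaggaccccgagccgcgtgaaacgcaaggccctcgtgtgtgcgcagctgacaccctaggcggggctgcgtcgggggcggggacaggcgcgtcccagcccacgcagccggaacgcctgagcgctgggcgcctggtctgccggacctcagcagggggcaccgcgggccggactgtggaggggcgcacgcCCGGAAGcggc
MRPL12, chr17:81703117-81703366, plus strand: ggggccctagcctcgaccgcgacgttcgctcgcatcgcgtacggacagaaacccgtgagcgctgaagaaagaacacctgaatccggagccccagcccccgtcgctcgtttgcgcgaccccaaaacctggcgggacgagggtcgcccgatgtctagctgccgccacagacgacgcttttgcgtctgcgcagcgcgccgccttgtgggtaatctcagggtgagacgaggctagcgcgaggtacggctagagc

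The fold changes with AMI-5, described further on, were also read by promoter word. Their median, on the log2 scale, was 0.00 over the 28 members with CCGGAAG and -0.10 over the 39 without it. It was -0.14 over the 13 members with AAGATGGCG and -0.05 over the 54 without. Called lower were 2 of the 28 members with CCGGAAG and 5 of the 39 without it, against 7.51% of all genes. For AAGATGGCG the counts were 3 of 13 and 4 of 54, and for GCATGCGC 1 of 6 and 6 of 61. MRPL32 and MRPL38 each held 2 of these words and are counted under both. These fold changes are those before the GC correction and moved with transcript GC content. The splits were not repeated after it. These splits are descriptions with no test.

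Total counts ran from 14451343 to 24691456 per library over the rows used here, and single member counts from 126 to 3289. Of 12 endothelial markers 10 were among the rows tested (PECAM1 and CLDN5 were not analysed here), with a summed level of 896 to 1318 CPM (read counts scaled to library size) in control libraries. None of 4 epithelial markers and 1 of 3 leukocyte markers (CD14, a summed level of 1.57 to 2.54 CPM) was among the rows tested. The absent ones were, like PECAM1 and CLDN5, not analysed here. Of 5 fibroblast markers 4 were present and summed to 2743 to 4174 CPM in control, nearly all of it COL1A1, at 2732 to 4164 CPM. Over all genes, libraries of the same number deviated from their group means together in all groups. Over the members alone the correlations of these deviations ran from -0.0031 to 0.978 between same-numbered libraries and from -0.969 to 0.915 between others, and 8 of 9 libraries correlated best with their own number. Each compound was therefore compared with control within numbers as well as without. The labels do not say that libraries came from separate cultures, and p-values then measure the spread between these libraries only.

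In DMSO control cells the mitochondrial ribosomal protein genes were expressed well above the typical gene. Per kilobase of transcript, the median was 31.4 CPM for 47 large subunit genes and 28.5 CPM for 29 small subunit genes, against 7.71 CPM over the 17821 genes with a known length. Of the 76 genes, 72 lay above the median of all genes and 56 above its upper quartile, and the median member stood at percentile 82.8. Levels of the proteins' genes were far from equal, although the finished ribosome holds most of these proteins in single copy. The range from the lowest to the highest gene was 27.7-fold in the large subunit and 29-fold in the small. These ranks rest on the transcript taken for the length: MRPL42, the lowest of the large subunit, has a transcript of 15582 bases against a median of 1462 over the members, and its level not scaled by length was 54.4 CPM. Without it the large subunit range was 15.2-fold. The lowest gene was then MRPL50, whose transcript of 3332 bases is also longer than that median. Not scaled by length, MRPL50 was at 21.2 CPM, above MRPL36 at 19.3 CPM.

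MRPL51 and MRPL20 were the highest large subunit genes at 96.6 ± 8.40 and 96 ± 8.79 CPM per kb (SD, n = 3). MRPL50 (6.36 ± 2.25 CPM per kb) and MRPL42 (3.49 ± 1.29 CPM per kb) were the lowest. In the small subunit MRPS24, a homologue of a bacterial ribosomal protein in the head of the subunit, was highest at 88.9 ± 13.7 CPM per kb, followed by MRPS34, which has no bacterial counterpart, at 68.2 ± 25.8 CPM per kb. MRPS23 (6.71 ± 0.751 CPM per kb) and MRPS33 (3.06 ± 0.378 CPM per kb) were lowest. The transcripts taken for MRPS23 and MRPS33 have 5621 and 4241 bases, against a small subunit median of 1547. Not scaled by length, the control mean of MRPS23 was 37.7 CPM, above MRPS36 at 10.3 CPM, while MRPS33 stayed below MRPS23. The small subunit ranks and range therefore rest on these lengths too, and the range was not recomputed without these genes. In order of level, the ranges over the 3 control libraries overlapped that of the next lower gene for 45 of 46 large subunit neighbours and for 24 of 28 small subunit neighbours. The large subunit exception was MRPL22 above MRPL50. The small subunit exceptions were MRPS15, MRPS21, MRPS30 and MRPS23, each above the gene ranked next.

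**Figure D1:**
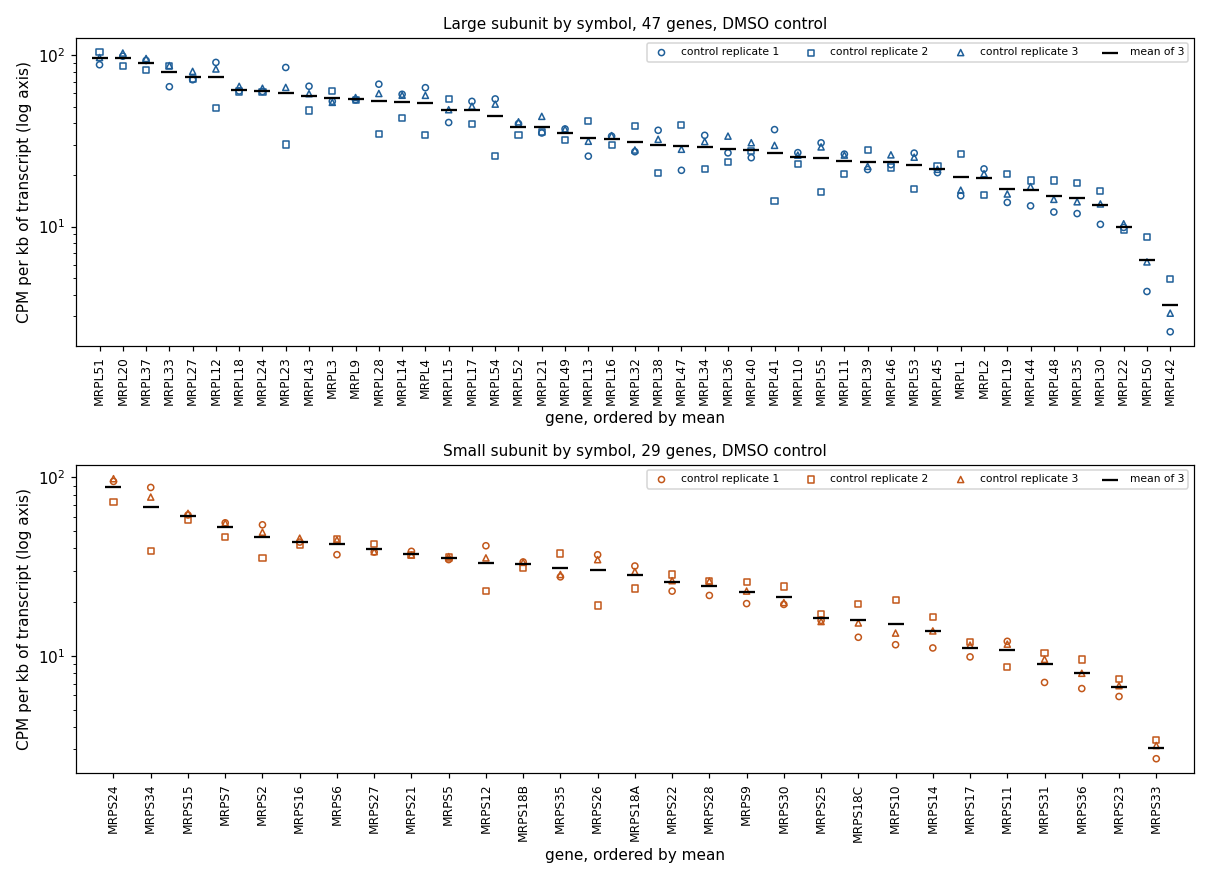
Level of each mitochondrial ribosomal protein gene in the 3 DMSO control libraries, in CPM per kilobase of transcript on a log axis, with genes ordered by their mean (black bar) and marker shapes for the replicate numbers. Neighbouring genes mostly overlap, MRPL51 and MRPL20 lead the large subunit near 96 CPM per kb, and MRPL42 and MRPS33 end the rows at 3.49 and 3.06 CPM per kb.

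Genes with shared roles differed in level as well. The 3 MRPS18 paralogues, which occupy different places in the ribosome, were at 32.7 ± 1.49 (MRPS18B), 28.5 ± 4.16 (MRPS18A) and 15.9 ± 3.47 CPM per kb (MRPS18C), and the ranges of the first and the second overlapped in the 3 control libraries. In the stalk, which recruits translation factors, MRPL12 was at 74.4 ± 22.2 CPM per kb, while MRPL10 and MRPL11 at its base were at 25.4 ± 2.03 and 24.3 ± 3.54 CPM per kb. MRPS12, at the decoding centre, was at 33.3 ± 9.34 CPM per kb. MRPL45, which ties the ribosome to the inner membrane, was at 21.6 ± 0.88 CPM per kb, and MRPL44, a protein with an RNase III-like fold near the tunnel exit, at 16.3 ± 2.77 CPM per kb.

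With AMI-1, no mitochondrial ribosomal protein gene passed the test, and most lay slightly below control. The summed level of the 77 rows was 3752, 3544 and 3841 CPM in control libraries 1, 2 and 3, and 3673, 3416 and 3599 CPM with AMI-1, so it was lower in every number while the groups overlapped. By subunit, the large subunit sum was 2348 ± 115 CPM in control and 2252 ± 94.8 CPM with AMI-1, and the small subunit sum was 1365 ± 37.8 and 1311 ± 38.3 CPM (SD, n = 3 each). These sums carry no test.

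In the fit that pairs libraries by number, the median log2 fold change was -0.06 for the large and -0.05 for the small subunit, against 0.00 over all 18284 genes tested. The fold change was below 0 in 60 of 77 members (77.9%), against 50.5% of all genes. Within pairs, 24 members (31.2%) were lower in 3 of 3 numbers and 4 were higher, against 15.7% and 14.4% of all genes. None was called at an adjusted p under 0.05, where the background was 0.18% lower and 0.23% higher, and the lowest adjusted p of a member was 0.391. The edgeR fit without pairing called none either (0% of all genes), with 0 members at an unadjusted p under 0.05, and DESeq2 called 0 members with and without pairing.

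The lowest fold changes were those of MRPL46, of the central protuberance, and of MRPL2 and MRPL4, homologues of bacterial proteins that touch rRNA in the core of the large subunit. MRPL46 was at 23.4, 22.6 and 26.7 CPM in control libraries 1, 2 and 3 and at 19.6, 19.7 and 23.5 CPM with AMI-1, a log2 fold change of -0.21 ± 0.08 (SE). It was lower in each number, yet the groups overlapped. MRPL2 had -0.18 ± 0.08 and MRPL4 -0.17 ± 0.07 (adjusted p = 0.412 and 0.449). At the other end were MRPS36 (0.15 ± 0.10), MRPS22 (0.11 ± 0.07), a small subunit protein without a bacterial counterpart, and MRPL13 (0.11 ± 0.07), a homologue of a bacterial large subunit protein.

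The precision of the paired comparison was enough to bound these differences. The median SE was 0.07 on the log2 scale with pairing and 0.16 without. With pairing, the 95% interval lay within 1.5-fold in either direction for all 77 members and within 1.2-fold for 56. Intervals were counted in the paired fit only, here and for the other comparisons. Without pairing the SE of MRPL41 was 0.49, so these bounds depend on the pairing. MRPS5 and MRPL9 were the members whose 3 AMI-1 values all lay under the 3 control values, a pattern found in 2.06% of all genes in that direction and in 1.94% in the other. MRPL9 was at 71.2, 71.0 and 73.4 CPM in control and at 67.2, 70.5 and 70.3 CPM with AMI-1. Its log2 fold change was -0.05, with an adjusted p of 0.826 in the paired edgeR fit.

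With AMI-5, 7 mitochondrial ribosomal protein genes fell and none rose in the paired fit, by 0.19 to 0.38 on the log2 scale, which is a reduction of 12.5% to 23.2%. They were MRPS34, MRPS2 and MRPS24 of the small subunit and MRPL12, MRPL32, MRPL37 and MRPL38 of the large. The share of members called lower, 9.09%, was close to the 7.51% of all genes called lower, and the background for higher calls was 3.44%. The fit without pairing called none of the 18284 genes (0%), and no member reached an unadjusted p under 0.05 there. The lowest unadjusted p was 0.0892. DESeq2 called 0 members without pairing and 6 with it, all but MRPL32 (adjusted p = 0.0526).

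The summed level of the 77 rows was 3665, 3232 and 3634 CPM in AMI-5 libraries 1, 2 and 3, lower than the control library of the same number in each case. The large subunit sum was 2227 ± 165 CPM and the small subunit sum 1283 ± 76.6 CPM (SD, n = 3). The median paired log2 fold change was -0.07 for the large subunit and -0.01 for the small one, against 0.00 over all genes. Without MRPS18A, MRPS30 and MRPS36 the small subunit median was -0.03 over 26 rows. With MRPS18A and MRPS30 moved to it, the large subunit median stayed at -0.07 over 50 rows. The fold change was below 0 in 51 of 77 members (66.2%), against 51% of all genes. Within pairs, 35 members (45.5%) were lower in 3 of 3 numbers and 7 (9.09%) higher, against 28.8% and 24.8% of all genes. The pairs were unequal: the median difference over members was 0.01 in number 1, -0.13 in number 2 and -0.06 in number 3.

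**Figure D2:**
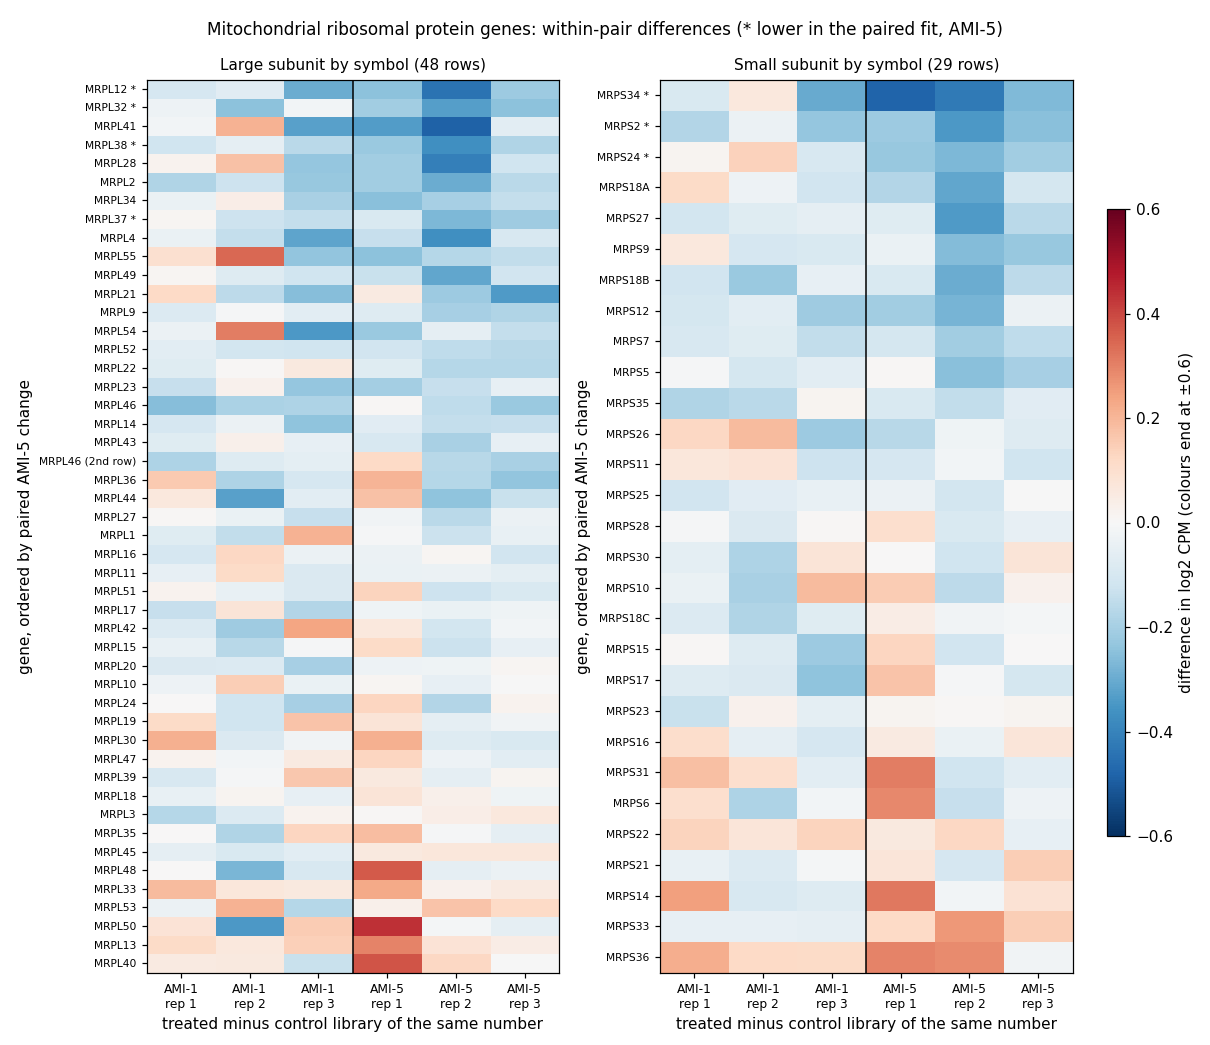
Differences in log2 CPM between a treated library and the control library of the same number, for the 48 large subunit rows (left) and the 29 small subunit rows (right), with genes ordered by the paired AMI-5 fold change and colours that end at ±0.6. The 7 genes with an asterisk are blue in all 3 AMI-5 columns, whereas 3 of them (MRPS34, MRPS24 and MRPL37) have both signs in the AMI-1 columns.

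In the small subunit, MRPS34, which binds the small subunit's rRNA and has no bacterial homologue, showed the largest fall. It was at 90.04, 39.9 and 79.5 CPM in control libraries 1, 2 and 3, at 84.6, 41.6 and 64.4 CPM with AMI-1 and at 64.4, 29.7 and 66.2 CPM with AMI-5. The AMI-5 value was below the control value in each number, but library 2 was low in every group and the groups overlapped. The log2 fold change was -0.38 ± 0.08 (adjusted p = 0.00797). MRPS2, a homologue of a bacterial small subunit protein, was at 89.0, 58.1 and 80.9 CPM in control and at 76.6, 45.8 and 68.1 CPM with AMI-5 (-0.26 ± 0.07, adjusted p = 0.0164). MRPS24 was at 67.2, 51.8 and 69.6 CPM in control and at 57.4, 42.9 and 60.2 CPM with AMI-5 (-0.23 ± 0.07, adjusted p = 0.0316). Both were lower in 3 of 3 numbers with overlapping groups.

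In the large subunit, MRPL12, the multi-copy protein of the stalk, was at 93.4, 50.4 and 85.5 CPM in control and at 78.8, 37.0 and 73.5 CPM with AMI-5 (-0.29 ± 0.07, adjusted p = 0.0172). MRPL32, which the inner-membrane m-AAA protease cleaves before it joins the ribosome, was at 28.3, 40.1 and 28.97 CPM in control and at 24.5, 31.9 and 24.4 CPM with AMI-5 (-0.27 ± 0.07, adjusted p = 0.0288). MRPL32 differed from the other called members in that its library 2 was the highest of each group. MRPL38, of the central protuberance, was at 68.9, 38.6 and 61.0 CPM in control and at 59.1, 29.9 and 53.9 CPM with AMI-5 (-0.25 ± 0.07, adjusted p = 0.0271). MRPL37, without a bacterial homologue, was at 138, 122 and 142 CPM in control and at 130, 101 and 122 CPM with AMI-5 (-0.19 ± 0.06, adjusted p = 0.0362). All 4 were lower with AMI-5 in 3 of 3 numbers, and the groups overlapped for each. Other GENCODE 29 genes share 68.2% of the exonic length of MRPL12, 41.1% of MRPL38, 23.2% of MRPS24 and 14.4% of MRPS2, but none of MRPS34, and the counts do not separate them. Over the 35 members without such overlap, a restriction chosen after seeing the data, MRPS34 was the 1 called lower (2.86%), and the median was -0.01.

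**Figure D3:**
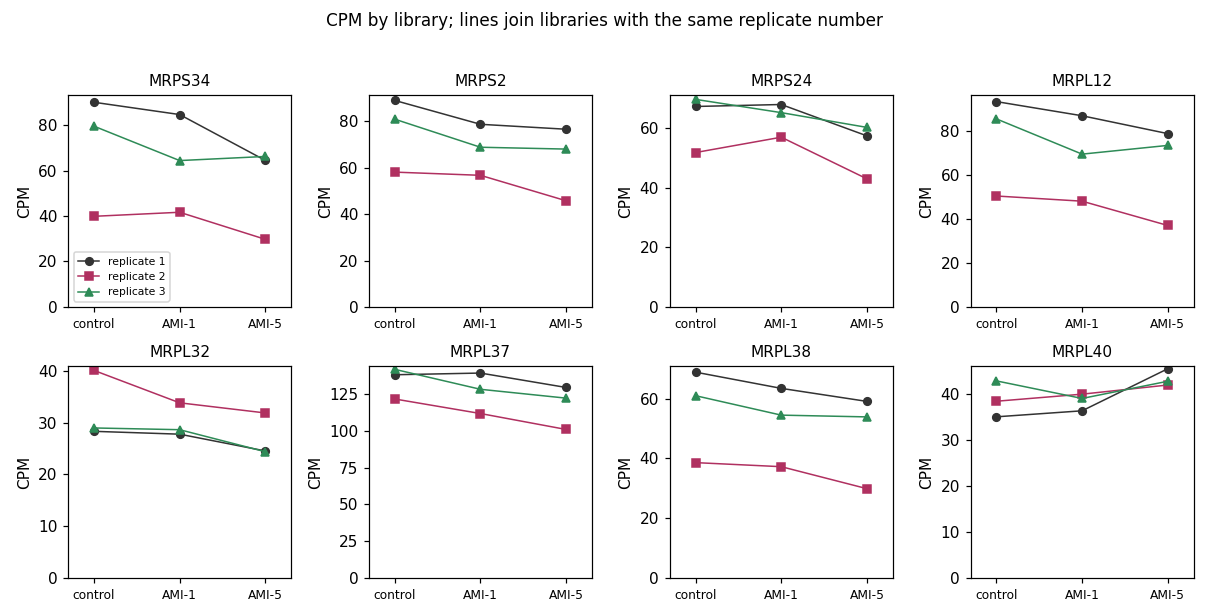
CPM of the 7 genes called lower with AMI-5 and of MRPL40, with lines that join libraries of the same replicate number from control to AMI-1 to AMI-5 and each axis starting at 0. Library 2 is the lowest in every group for 6 of the 7 called genes and the highest for MRPL32, and each called gene's line ends lower at AMI-5 than at control.

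These calls depended on which libraries were in the fit. Leaving out 1 library at a time, the paired fit called 0 members without control library 1, control library 3, AMI-5 library 1 or AMI-5 library 2. It called 4 without control library 2 and 12 without AMI-5 library 3. It called 3, 11 and 20 without AMI-1 libraries 1, 2 and 3, which enter only through the shared spread and the number effects. MRPS34, MRPL12 and MRPS2 kept the call in 5 of the 9 such fits, MRPS24 in 4, MRPL38 in 3, and MRPL32 and MRPL37 in 2.

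In the same comparison 6 of the 10 endothelial markers were called lower and 1 higher (ESAM), against 7.51% and 3.44% of all genes, their sum running from 739 to 1038 CPM with AMI-5. ESAM was low in all libraries, at 1.47, 0.544 and 1.43 CPM in control and 2.77, 2.75 and 2.87 CPM with AMI-5. After the GC correction described further on, 4 of the 10 were called lower and 1 higher, and EGFL7 (adjusted p = 0.431) and TIE1 (adjusted p = 0.16) were not. Of the fibroblast markers 1 of 4 was called lower (COL1A1), with a sum of 2220 to 2936 CPM, and none of the 5 smooth muscle and pericyte markers was called (58.6 to 91.2 CPM in all libraries). The part of these differences in the members' values was not tested. All groups were the same line, HMEC-1. In bulk RNA, a change in a part of the cells and a change in every cell cannot be told apart.

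Members whose 3 AMI-5 values all lay under the 3 control values were MRPL9, MRPL22 and MRPS27, and none lay above, against 3.36% and 3.98% of all genes. None of the 3 was called in the paired fit. MRPS27, a small subunit protein without a bacterial homologue, was at 106, 119 and 107 CPM in control and at 101, 93.6 and 95.5 CPM with AMI-5 (-0.19 ± 0.06, adjusted p = 0.0604). MRPL9 was at 67.5, 61.9 and 64.8 CPM with AMI-5, against the control values of 71.0 to 73.4 CPM (-0.15, adjusted p = 0.117). MRPL22, which lines the exit tunnel, was at 31.4, 30.2 and 32.98 CPM in control and at 29.8, 26.8 and 29.3 CPM with AMI-5 (-0.14 ± 0.07, adjusted p = 0.238). The other members' paired fold changes ran up to 0.18 (MRPS36), and the 95% interval of all 77 lay within 1.5-fold in either direction, that of 38 within 1.2-fold.

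Described by place in the ribosome, the members gave small medians with both compounds. The 6 rows listed as stalk and stalk base had a median of -0.05 with AMI-5 (1 called lower, MRPL12) and -0.01 with AMI-1. This list takes in MRPL1, which belongs to a stalk separate from that of MRPL12. MRPL10 and MRPL11, on which the stalk sits, had -0.01 ± 0.07 and -0.05 ± 0.07 with AMI-5. The 8 exit-tunnel rows had medians of -0.02 with AMI-5 and -0.07 with AMI-1, with none called, among them MRPL45 at 0.07 ± 0.07 and MRPL44 at -0.07 ± 0.09 with AMI-5. The 8 rows of the central protuberance ranged from -0.25 (MRPL38, the 1 called) to 0.16 (MRPL40), and the 8 of the small subunit head from -0.23 (MRPS24, the 1 called) to 0.18 (MRPS33). MRPS12 had -0.16 ± 0.08 with AMI-5 (adjusted p = 0.181). The MRPS18 paralogues had -0.19 ± 0.08 (MRPS18A), -0.18 ± 0.07 (MRPS18B) and 0.00 ± 0.07 (MRPS18C), none past the threshold. The 48 members with a bacterial homologue had a median of -0.06 with AMI-5 (4 called lower, 8.33%) and the 29 without one -0.05 (3 called lower, 10.3%), both near the 7.51% of all genes.

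Replicate number accounted for far more of the members' variation than treatment did. Of the summed squares of log2 CPM over the 77 rows, 85.7% lay between numbers and 7.31% between treatments, and in 71 rows the number share was the larger. Over all genes tested the shares were 77.2% and 11.1%. The library numbered 2 stood apart in control and with AMI-5. In control, its median absolute difference from the mean of libraries 1 and 3 was 0.34 on the log2 scale, against 0.14 between libraries 3 and 1. The same pair of values was 0.24 and 0.18 with AMI-1, a smaller gap, and 0.33 and 0.07 with AMI-5. Among control libraries, library 2 was the lowest in 38 members and the highest in 31, library 1 in 36 and 26, and library 3 in 3 and 20. With AMI-1 library 1 was the lowest in 39 and the highest in 34, and library 2 in 34 and 31. With AMI-5 the same counts were 25 and 38 for library 1 and 46 and 28 for library 2. MRPL23 was at 62.5, 22.2 and 47.8 CPM in control libraries 1, 2 and 3, and MRPL42 at 37.9, 76.8 and 48.7 CPM, so the same library was lowest for the first gene and highest for the second. MRPL23 and MRPL41 were named after their values were seen. In this library 3.21% to 3.59% of counts fell on mitochondrially encoded genes in the 3 groups, against 2.20% to 2.53% in the other libraries.

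The direction followed the base composition of the transcript. The log2 level in library 2 minus the mean of libraries 1 and 3 was correlated with transcript GC content across the 77 rows at r = -0.907 in control, -0.898 with AMI-1 and -0.927 with AMI-5. Rows are not independent replicates, and all points of a panel share the same 3 libraries. Over 14765 genes the same r was -0.822, -0.727 and -0.805. In control, the median difference was -0.39 over the 38 members above the members' median GC content of 48.9% and 0.30 over the other 39. The extremes were MRPL23 at -1.30 in control (66.3% GC) and MRPL41 at -1.52 with AMI-5 (71.9% GC).

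**Figure D4:**
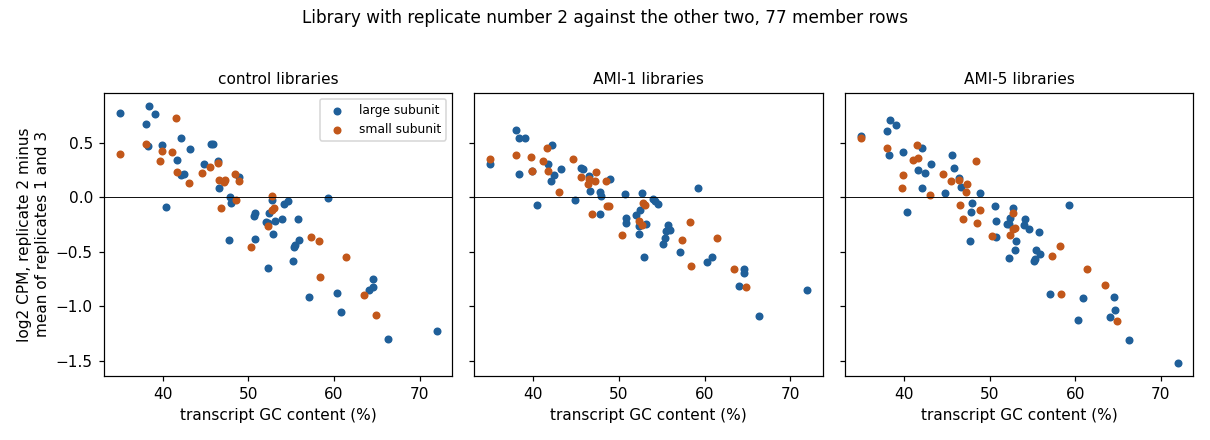
Log2 CPM in the library numbered 2 minus the mean of libraries 1 and 3 of the same group, against transcript GC content, for the 77 rows in control, AMI-1 and AMI-5 libraries. In every panel the points slope down from GC-poor to GC-rich genes, with exceptions such as MRPL40 at 59.3% GC near 0, and reach -1.30 for MRPL23 in control and -1.52 for MRPL41 with AMI-5.

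The fold changes with AMI-5 moved with GC content too. Across the 77 rows the paired log2 fold change had r = -0.654 with GC content for AMI-5 and -0.418 for AMI-1, against -0.392 and -0.216 over 17821 genes. The AMI-5 median was -0.15 over the 38 GC-rich members and 0.01 over the other 39. The 7 called members had a median GC content of 61.4%, and the 1373 genes called lower 59.4%, against 48.7% over all genes. The members as a set lay near all genes, at a median GC content of 48.9%. The large subunit was above that of all genes at 51.4%, and the small subunit below it at 47.3%.

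A correction that removes each library's smooth trend with GC content across genes, fitted together with the pairing, changed which members were called. Among the members a trend of the opposite sign remained. Across the 77 rows the corrected fold change had r = 0.265 with GC content for AMI-5 and 0.184 for AMI-1. With AMI-5 the correction called 8 lower (MRPL1, MRPL22, MRPL32, MRPL42, MRPS9, MRPS27, MRPS34 and MRPS35) and 1 higher (MRPL40), against 8% and 5.48% of all genes. Of the 8 lower calls, 7 were among the 39 members at or below the members' median GC content, and MRPL40 lay above it. Of the 7 calls before the correction, MRPS34 (-0.17 ± 0.04, adjusted p = 0.00845) and MRPL32 (-0.30 ± 0.06, adjusted p = 0.000774) remained. MRPL12 moved from -0.29 to -0.08 (adjusted p = 0.30), MRPL38 to -0.03 (adjusted p = 0.733), MRPS2 to -0.10, MRPS24 to -0.11 and MRPL37 to -0.10. MRPL40, a protein of the central protuberance, was at 35.01, 38.4 and 42.8 CPM in control and at 45.5, 41.9 and 42.7 CPM with AMI-5. Its fold change was 0.16 ± 0.08 before the correction (adjusted p = 0.176) and 0.29 ± 0.07 after it (adjusted p = 0.00651). The large and small subunit medians were -0.04 and -0.06 after the correction. With AMI-1 the correction called no member, where it called 2.21% of all genes lower and 1.36% higher.

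**Figure D5:**
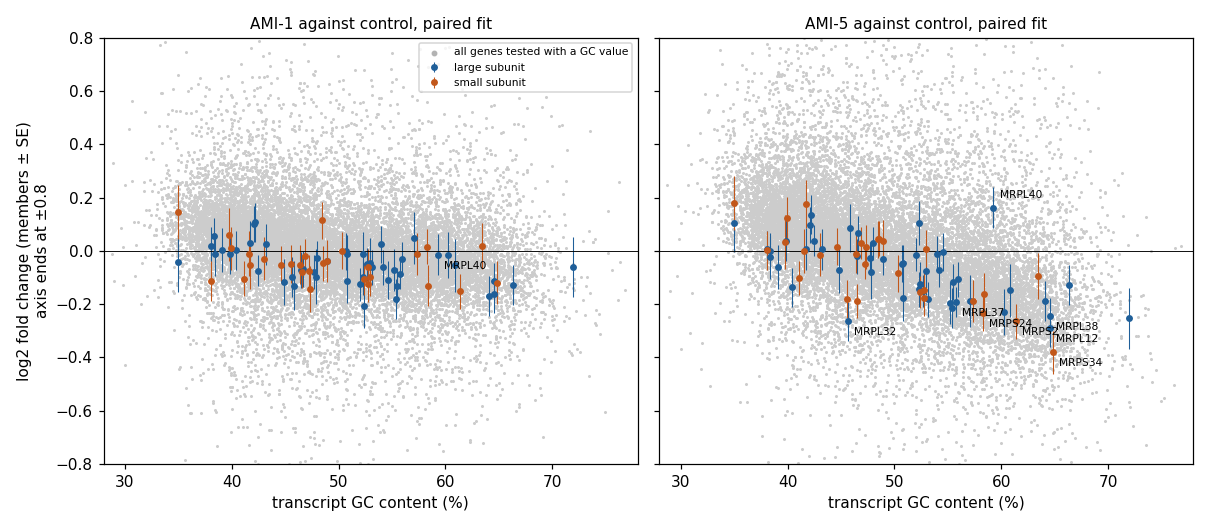
Paired log2 fold change against transcript GC content for AMI-1 (left) and AMI-5 (right), with members coloured by subunit (bars are SE) and all genes tested in grey, on an axis that ends at ±0.8. In the AMI-5 panel 6 of the 7 called members lie on the GC-rich side and MRPL32 at 45.6% GC does not, and MRPL40 stands at 0.16.

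AMI-5 and AMI-1, given at the same dose and for the same time, were compared directly as a single pair. MRPS24 was the 1 member lower with AMI-5 in the paired fit and none was higher, against 3.48% and 1.62% of all genes. It was at 67.9, 56.9 and 65.1 CPM with AMI-1 and at 57.4, 42.9 and 60.2 CPM with AMI-5, lower in each number with overlapping groups (-0.25 ± 0.07, adjusted p = 0.0371). The call was lost without control library 1 or 3, AMI-1 library 1 or 2, or AMI-5 library 1 or 2, up to an adjusted p of 0.255. MRPS34, the gene with the largest fall against control, had -0.26 ± 0.08 between the compounds (adjusted p = 0.0718).

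The median difference between the compounds was -0.02 for the large and 0.00 for the small subunit, and 43 of 77 members (55.8%) were below 0, against 51.6% of all genes. Within pairs 10 members (13%) were lower and 10 higher in 3 of 3 numbers, against 18.5% and 16.7%. The 95% interval lay within 1.5-fold for all 77 members and within 1.2-fold for 54. The groups did not overlap for MRPL22, lower with AMI-5, and for MRPL40 and MRPL45, higher with AMI-5, against 3.28% and 4.21% of all genes. MRPL45 was at 33.9, 35.9 and 35.2 CPM with AMI-1 and at 36.7, 40.1 and 38.6 CPM with AMI-5 (0.13 ± 0.07, adjusted p = 0.274). After the GC correction 3 members were lower (MRPL22, MRPL32 and MRPS24) and 4 higher (MRPL20, MRPL24, MRPL40 and MRPS15), against 6.78% and 5.15% of all genes. The fit without pairing called none (0% of all genes), with 0 members at an unadjusted p under 0.05, and DESeq2 called 0 without pairing and 1, MRPS24, with it.

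Genes that work with the mitochondrial ribosome were read from lists beside the members, with 7.51% of all genes called lower and 3.44% higher with AMI-5 as the background for each count. Of 7 ribosomal subunits outside the symbol rule, 1 was lower with AMI-5: AURKAIP1, a small subunit protein, at 117, 50.2 and 105 CPM in control and 102, 38.5 and 87.0 CPM with AMI-5 (-0.28 ± 0.07, adjusted p = 0.0184; -0.03 after the GC correction). MRP63 and ICT1, older symbols of MRPL57 and MRPL58, had 0.12 and -0.23 (adjusted p = 0.239 and 0.0537). After the GC correction ICT1 was called lower (-0.20, adjusted p = 0.0297). Of 23 rows for assembly and rRNA modification, 2 (8.70%, near the background) were lower: NOA1 and ERAL1, a GTPase each that acts in small subunit assembly, at -0.32 ± 0.07 and -0.25 ± 0.06 (adjusted p = 0.0127 and 0.0139), and at -0.24 and -0.16 after the correction (adjusted p = 0.00487 and 0.0118). Of 11 genes for mitochondrial transcription and RNA processing, POLRMT, the mitochondrial RNA polymerase, was lower (-0.35 ± 0.09, adjusted p = 0.0252; -0.12 after the correction).

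Of 16 translation factors, MTIF2, the initiation factor that joins the subunits at the start codon, was higher with AMI-5 (0.22 ± 0.07, adjusted p = 0.0489), but not after the GC correction (0.14, adjusted p = 0.0881). Of 8 regulators of mitochondrial biogenesis, PPRC1, a coactivator related to PGC-1, was lower (-0.35 ± 0.06, adjusted p = 0.00196; -0.25 after the correction), and NRF1, GABPA and YY1 had -0.09, 0.06 and -0.06, none called. Of 12 genes for membrane insertion and quality control, LONP1, a matrix protease, and SPG7, a subunit of the m-AAA protease, were lower (-0.24 ± 0.07 and -0.27 ± 0.06, adjusted p = 0.0383 and 0.0104). After the correction LONP1 was at -0.05 (adjusted p = 0.402) and SPG7 at -0.13 (adjusted p = 0.0447). OXA1L of this list was called lower with AMI-5 only after the correction (-0.16, adjusted p = 0.00687). So was TFB1M of the assembly list (-0.31, adjusted p = 0.0156), where 8% of all genes were called lower. Between the compounds SPG7 was lower with AMI-5 (-0.29 ± 0.06, adjusted p = 0.00751) and HSPD1, the matrix chaperonin, higher (0.25 ± 0.06, adjusted p = 0.015), and both kept the call after the correction (-0.19 and 0.21). The 13 mitochondrially encoded mRNAs, which these ribosomes translate, were all above 0 with both compounds, with medians of 0.11 (AMI-1) and 0.08 (AMI-5). Of the 13, 7 (AMI-1) and 11 (AMI-5) were higher in 3 of 3 numbers, against 14.4% and 24.8% of all genes. These 13 rows share the same libraries and are not independent replicates. With AMI-1 their median difference was 0.00 in number 1, 0.15 in number 2 and 0.16 in number 3. Called higher were 0 (AMI-1) and 3 (AMI-5), against 0.23% and 3.44% of all genes. After the correction these counts were 3 and 2, against 1.36% and 5.48%, and 1 of the 13 was below 0 with AMI-5. No gene of these lists was called with AMI-1 in the paired fit without the correction. With it, PPRC1 (-0.19, adjusted p = 0.00276), HSPD1 (-0.15, adjusted p = 0.00831) and MYC, a transcription factor of the regulator list (-0.27, adjusted p = 0.000413), were lower with AMI-1. Between the compounds the correction also called TFB1M (-0.33, adjusted p = 0.00937) and NOA1 (-0.18, adjusted p = 0.047) lower with AMI-5. It called MYC higher there (0.27, adjusted p = 0.000156), where 6.78% and 5.15% of all genes were called lower and higher.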

How the data were processed

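The authors deposited raw read counts per gene in a table for each compound, with the same control libraries in both (0 control values differed), and every row has a mean count of at least 10. BWA, bedtools and hg19 are named per the submitters' processing notes. Which versions, annotation and strand setting were used is not given in the sources used here, so reads of overlapping or antisense genes cannot be told apart.

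Rows in both tables were tested by edgeR 4.0.16 (R 4.3.3, quasi-likelihood F test, TMM, filterByExpr by group, 18284 of 18293 rows tested, Benjamini-Hochberg over all of them, threshold 0.05), without a block and paired by replicate number. CPM uses TMM-scaled library sizes and log2 CPM a prior count of 2. The GC correction is a lowess curve per library (span 0.3). DESeq2 1.42.0 was an alternative. Scripts were tested on simulated data. Lengths and GC content are those of the longest principal GENCODE 29 transcript, matched by gene identifier or, for 316 genes (MRPL45 and MRPS21 among them), by symbol.

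Deviations from group means correlated at 0.431 to 0.871 between same-numbered libraries over all genes, and at -0.804 to 0.204 between others. Columns of 1 number begin with the same prefix, whose meaning the labels do not give. The biological coefficient of variation was 23.7% without pairing and 5.64% with it.

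Members and lists were chosen with earlier results of these data known. Named genes are the members called in the paired fit, otherwise the 3 lowest and 3 highest fold changes, the 2 highest and 2 lowest per subunit per kilobase, members of fixed roles, and members whose groups do not overlap between the compounds. Other members are named where a count of 5 or fewer, or a list, singles them out.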

Additional observations from a re-analysis of the deposited data

How the results depend on the processing

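Counts of called members depended on the pairing. Without it they were 0 in all comparisons under every alternative run, and with the replicate block 0 (AMI-1), 7 (AMI-5) and 1 (AMI-5 against AMI-1). In the paired fits, using only the libraries of the contrast gave 20 members with AMI-5 and 0 between the compounds, and the GC correction gave 7 between the compounds. Leaving out 1 library at a time gave 0 to 20 members with AMI-5, 0 to 12 between the compounds and 0 with AMI-1. DESeq2 size factors and no filter on low counts changed no called member. The small subunit median with AMI-1 ran from -0.0645 to -0.0306 when 1 library was left out, the latter without control library 2. Between the compounds the subunit medians took both signs in such fits (-0.0543 to 0.00393 and -0.0363 to 0.0258), and the small subunit median with AMI-5 ran from -0.0639 to -0.00303. The other subunit medians moved by less than the spread over pairs under the alternatives run, among them the restriction to members without exonic overlap, chosen after seeing the data. That restriction moved the AMI-5 median over both subunits from -0.0484 to -0.0129 and left 1 of 35 members called lower (2.86%) in place of 7 of 77 (9.09%). Of 87 single-gene results, no called value changed sign. What separates the numbered libraries, and why library 2 follows GC content, was not tested. Each group has 3 libraries.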
